A study of Mus musculus with 6 samples.

Results

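Forkhead transcription factors, encoded by the mouse Fox genes, were followed across 6 tumour cell lines. The members were all array probes whose gene symbol is Fox, a letter from a to s and a number, which gave 50 probes for 39 genes, out of 18749 genes with a symbol on the array. A probe called well above background by the scanner software on every array of SMC or of non-SMC lines made 29 of these genes testable, and the other 10 were not tested. Foxi3, Foxl1, Foxn4, Foxr1 and Foxr2 were not analysed here.

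The 3 lines of 1 group are called SMC and the 3 lines of the other non-SMC, terms that the labels do not spell out. All 6 are primary lines from lung tumours of C57BL/6J mice carrying Rb1L/L and Trp53L/L, a model of small cell lung carcinoma, so both groups share this genotype. The labels used here give neither the age of the mice nor how the alleles were deleted, and they name no treatment. Each SMC line has a non-SMC partner with the same pair name, pairs 1 and 3 from females and pair 2 from a male. Each line gave 1 single-colour Agilent array. No label mentions separate cultures of a line, so the spread is that between lines.

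Forkhead proteins bind DNA through a winged-helix domain, and many of them recognise a shared core sequence. FOXA proteins open closed chromatin in the endoderm from which lung epithelium arises, while FOXF and FOXC proteins act in mesoderm and in the connective tissue it forms. Others follow general cell states: FOXM1 drives genes of mitosis, FOXO proteins respond to insulin and growth factor signalling, and FOXJ1 switches on the genes of motile cilia.

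The scanner software called 26385 to 28185 of 41174 probes per array well above background (64.1% to 68.5%), and it marked none as saturated. Levels are given as log2 signal minus the array's own 75th percentile, and every difference is that of SMC over non-SMC on this scale. Signals of different probes are not comparable, so no gene is ranked above another by level. Of the genes targeted in the model, Rb1 lay at 0.63, 0.64 and 0.27 in SMC lines 1 to 3 and at -2.07, -0.37 and -2.09 in non-SMC lines 1 to 3, and Trp53 lay between -0.30 and -0.02 in SMC and between -0.36 and 0.14 in non-SMC lines. The position of these probes in the deleted part of each gene was not examined, so they check nothing about the deletion. SMC lines 1 to 3 carried 16, 17 and 16 of 17 neuroendocrine markers, and non-SMC lines 1 to 3 carried 11, 17 and 15. SMC lines 1 and 2 and non-SMC lines 2 and 3 shared 1 slide, while SMC line 3 and non-SMC line 1 each lay on another, so in pair 2 alone were both partners measured on 1 slide.

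The question was which forkhead genes distinguish an SMC line from its non-SMC partner. Foxf2 and Foxc2, regulators of mesenchyme and of mesodermal and lymphatic development, were lower in SMC lines and were the only tested forkhead genes past the threshold. Foxs1, Foxf1 and Foxn1 had differences of -3.81, -3.66 and -3.36, and Foxa2 and Foxp2 of 4.41 and 4.70, without passing. By limma with the pair as a block and Benjamini-Hochberg adjustment over all 19859 features (adjusted p under 0.05), 2 of 29 forkhead genes were lower and 0 higher, against 3.03% of all features lower, 0.156% higher and 3.18% in either direction. At an unadjusted p under 0.05, 6 of 29 forkhead genes were lower and 5 higher, against 11.8% and 15% of features. The groups did not overlap for 7 genes lower and 6 higher in SMC, against 15.4% and 22.8% of features. The median difference was 0.00 over the 29 genes and 0.18 over all features. In 16 of 29 genes the sign was shared by all 3 pairs, against 55.5% of features.

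**Figure D1:**
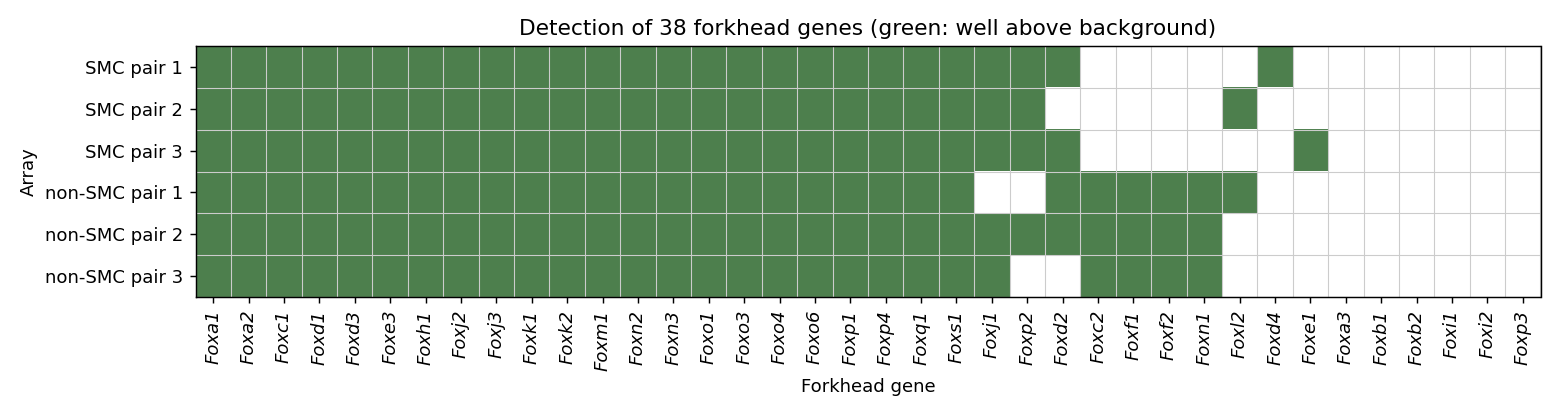
Detection of 38 forkhead genes (columns) on the 6 arrays (rows, SMC above non-SMC), with green for a representative probe well above background and white otherwise. The 22 genes at the left were detected on all 6 arrays, Foxc2, Foxf1, Foxf2 and Foxn1 on the 3 non-SMC arrays only, and the 6 at the right on none.

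SMC lines 1 to 3 had 27, 26 and 27 of the 39 genes well above background, and non-SMC lines 1 to 3 had 29, 30 and 28. By the scanner's looser call, a signal positive and significant against background, the counts were 30, 32 and 34 in SMC lines and 35, 33 and 34 in non-SMC lines, which overlap. Of the 39 genes, 23 were detected on all 6 arrays and 6 on none. These are 59% and 15.4%, against 61.1% and 16.3% of named genes. Foxc2, Foxf1, Foxf2 and Foxn1 were detected on all 3 non-SMC arrays and on no SMC array. Detection on non-SMC arrays only held for these 4 of 39 forkhead genes, or 10.3%, and for 1013 of 18749 named genes on the array, or 5.4%. Foxd4 and Foxe1 were detected on SMC arrays only, on 1 each, and the other 4 genes on some arrays of both groups. These classes held 5.13% and 10.3% of forkhead genes, against 3.58% and 13.7% of named genes.

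Foxf2 (chromosome 13, probe A_51_P248865), a regulator of gut and palate mesenchyme and of pericytes, lay at -8.32, -8.25 and -8.28 in SMC lines 1 to 3 and at -0.11, -0.84 and -0.26 in non-SMC lines 1 to 3. Every SMC signal was below every non-SMC signal, and none of the SMC signals was well above background. The means were -8.28 ± 0.03 in SMC and -0.40 ± 0.38 in non-SMC lines (SD, n = 3 each). Foxf2 was at least 59.5-fold lower in SMC lines, a bound for which each dim signal counts as no lower than the dimmest signal well above background on its array. The fitted difference was -7.88 ± 0.32 (SE, 3 pairs, limma adjusted p = 0.00702). Foxf2 entered the test through the non-SMC arrays only, where it was high, and this SE and p-value rest partly on background signal.

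Foxc2 (chromosome 8, probe A_51_P196444), needed for lymphatic vessels and for mesoderm of the body axis, lay at -8.09, -8.14 and -7.40 in SMC lines 1 to 3 and at 1.66, -0.62 and 0.09 in non-SMC lines 1 to 3. The groups lay far apart in each pair, and no SMC signal was well above background. The means were -7.88 ± 0.41 in SMC and 0.38 ± 1.17 in non-SMC lines (SD, n = 3 each). Foxc2 was at least 102-fold lower in SMC lines, with a fitted difference of -8.26 ± 0.59 (SE, 3 pairs, limma adjusted p = 0.0152). Like Foxf2 it entered the test through the non-SMC arrays only, with the same limit on its SE and p-value. With only the 4 arrays of the shared slide, the differences were -7.74 for Foxf2 and -7.85 for Foxc2 (limma adjusted p = 0.00898 for both). Fits of these 4 arrays, here and below, leave out the pair, since only pair 2 has both partners there. Both calls were lost without pair 3 (limma adjusted p = 0.0621 for Foxf2 and 0.0714 for Foxc2), where 0 features passed, and with normexp background correction the differences were -3.04 and -3.53 and Foxc2 no longer passed (limma adjusted p = 0.0134 and 0.0517).

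Markers of connective tissue moved with these genes. Of 13 fibroblast markers, 7, 6 and 7 were detected in SMC lines 1 to 3 and 12, 12 and 13 in non-SMC lines 1 to 3. Their summed level, in multiples of the 75th percentile of the array, was 3.21, 0.593 and 2.18 in SMC lines 1 to 3 and 556, 218 and 500 in non-SMC lines 1 to 3. Of 12 tested, 6 were lower and 0 higher, against 3.03% and 0.156% of features. Among the 6 were the collagen genes Col1a1 and Col3a1, which were well above background on no SMC array, and Col1a2. Of 13 endothelial markers, 5, 5 and 4 were detected in SMC lines 1 to 3 and 6, 6 and 6 in non-SMC lines 1 to 3. Flt1, a VEGF receptor gene, was the 1 of 6 tested that passed, as lower, against 3.03% of features. Pecam1, Cdh5, Tie1, Emcn and Cldn5 were detected on no array. Summed endothelial levels were 21.5, 11.4 and 4.16 in SMC lines 1 to 3 and 4.1, 15.4 and 5.09 in non-SMC lines 1 to 3. Single probes gave most of the signal in these sums, and such shares do not compare the genes in level. Vwf, which encodes von Willebrand factor, gave 97.3% in SMC line 1, 97.3% in SMC line 2 and 77.2% in non-SMC line 2. Egfl7, which encodes a secreted vascular protein, gave 90.1% in SMC line 3, and Flt1 gave 84.6% and 58.5% in non-SMC lines 1 and 3. The part of other cell types in the forkhead differences was not tested, and in such bulk RNA fewer cells of a type and less RNA per cell cannot be told apart.

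**Figure D2:**
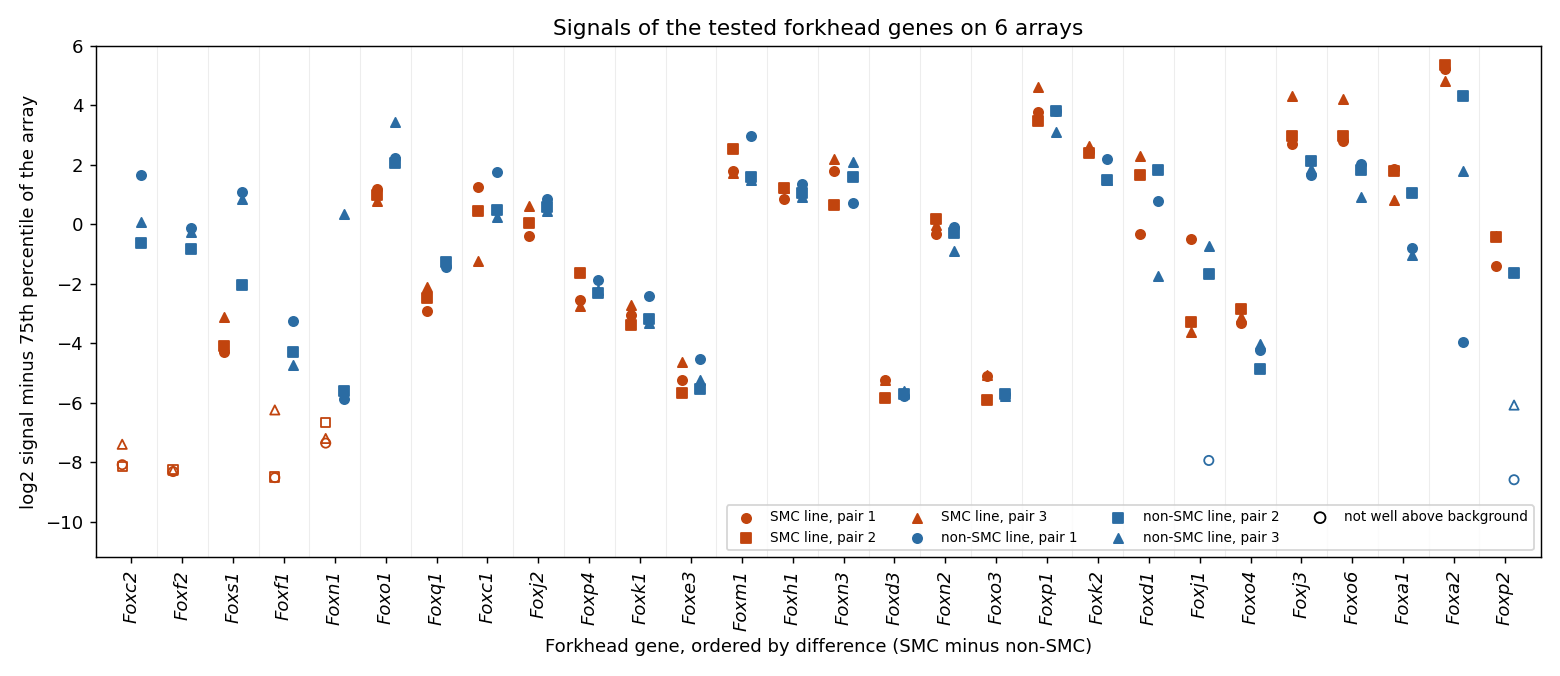
Signals of 28 tested forkhead genes on each array (vertical axis, log2 signal minus the 75th percentile of the array), ordered by difference. In each column SMC lines are at the left in orange and non-SMC lines at the right in blue, with 1 symbol per pair and open symbols for signals not well above background; Foxc2 and Foxf2 are open in all SMC lines and filled in all non-SMC lines.

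Foxf1, the relative of Foxf2 in lung mesenchyme and a target of Hedgehog signals, lay at -8.52, -8.50 and -6.25 in SMC lines 1 to 3 and at -3.25, -4.31 and -4.72 in non-SMC lines 1 to 3. SMC signals were lower in each pair, and none was well above background. The gap was at least 4.54-fold, and the fitted difference of -3.66 ± 0.83 did not pass (SE, limma adjusted p = 0.113). Without the pair in the fit it passed (limma adjusted p = 0.0462), which made 3 of 29 forkhead genes lower and 0 higher, against 4.91% and 1.39% of features. It also passed with the shared slide's 4 arrays, again without the pair (-3.996, limma adjusted p = 0.0189). With a slide block beside the pair it did not pass (limma adjusted p = 0.0598), and with normexp the difference was -0.72.

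Foxs1, a forkhead gene of pericytes and neural crest derivatives, was detected on all 6 arrays and lay at -4.29, -4.11 and -3.11 in SMC lines 1 to 3 and at 1.10, -2.03 and 0.85 in non-SMC lines 1 to 3. The groups did not overlap, and non-SMC line 2 lay nearest to the SMC lines. The difference was -3.81 ± 0.73 (SE, limma adjusted p = 0.094). Without pair 2 it was -4.67 and passed (limma adjusted p = 0.0483), which made 3 of 29 forkhead genes lower, against 2.53% of features.

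Foxc1, the close relative of Foxc2 in mesoderm and neural crest, lay at 1.26, 0.45 and -1.24 in SMC lines 1 to 3 and at 1.77, 0.48 and 0.23 in non-SMC lines 1 to 3. The groups overlapped, and the difference of -0.67 ± 0.40 had a 95% interval of -1.79 to 0.45 (SE, limma adjusted p = 0.352). Its sign turned with the shared slide's 4 arrays (0.50, limma adjusted p = 0.471). Foxq1, a forkhead factor of stomach mucous cells and hair, lay at -2.92, -2.48 and -2.10 in SMC lines 1 to 3 and at -1.42, -1.26 and -1.26 in non-SMC lines 1 to 3. All SMC signals were lower than all non-SMC signals, and the difference was -1.19 ± 0.31 (SE, limma adjusted p = 0.129).

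Several of these genes are neighbours in the genome. In the RefSeq table of assembly GRCm38.p6, Foxq1, Foxf2 and Foxc1 follow each other on chromosome 13 with 0 other protein-coding genes between them, and Foxf1 and Foxc2 lie on chromosome 8 with 1 between them. Along chromosome 13 the differences were -1.19 for Foxq1, -7.88 for Foxf2 and -0.67 for Foxc1, and on chromosome 8 they were -3.66 for Foxf1 and -8.26 for Foxc2. The 250 bases before the RefSeq starts of Foxf2 (chr13:31625566-31625815) and Foxc1 (chr13:31806396-31806645), both on the plus strand, are shown 5′ to 3′ because these adjacent genes differed so unequally; capitals mark CpG dinucleotides.
Foxf2: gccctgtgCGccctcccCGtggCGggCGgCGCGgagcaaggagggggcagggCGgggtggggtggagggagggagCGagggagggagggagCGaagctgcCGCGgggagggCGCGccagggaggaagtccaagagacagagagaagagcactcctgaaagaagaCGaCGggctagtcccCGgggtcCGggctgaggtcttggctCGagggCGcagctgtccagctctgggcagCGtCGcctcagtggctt
Foxc1: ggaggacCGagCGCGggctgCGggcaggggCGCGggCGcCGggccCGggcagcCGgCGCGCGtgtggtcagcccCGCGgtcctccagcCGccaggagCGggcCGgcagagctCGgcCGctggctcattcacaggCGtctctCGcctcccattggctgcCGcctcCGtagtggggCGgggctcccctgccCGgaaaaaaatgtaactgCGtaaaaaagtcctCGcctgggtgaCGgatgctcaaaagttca
The windows hold 21 CpG dinucleotides before Foxf2 and 29 before Foxc1, ranks at the 85.2 and 94.1 percentiles of 32851 windows of this length. Both are thus rich in CpG, and neither holds the forkhead core TGTTTA on either strand. DNA methylation was not analysed here.

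Foxd1, a marker of kidney stroma, lay at -0.33, 1.67 and 2.30 in SMC lines 1 to 3 and at 0.79, 1.81 and -1.73 in non-SMC lines 1 to 3. The groups overlapped, and its difference of 0.92 had a 95% interval of -2.23 to 4.06. Foxd3, a neural crest factor, lay between -5.86 and -5.23 in SMC and between -5.79 and -5.60 in non-SMC lines, close to the detection limit (limma adjusted p = 0.625). Foxd2 was detected on 2 arrays of each group, and Foxl2, a factor of ovarian granulosa cells, on 1 of each.

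The endodermal members had positive differences that did not pass the test. Foxa2, a pioneer factor of gut and airway epithelium, lay at 5.22, 5.36 and 4.82 in SMC lines 1 to 3 and at -3.95, 4.32 and 1.80 in non-SMC lines 1 to 3. The SMC lines were tightly grouped, while the non-SMC lines were spread widely, with line 2 close to the SMC level. The means were 5.13 ± 0.28 in SMC and 0.72 ± 4.24 in non-SMC lines (SD, n = 3 each), and the difference was 4.41 ± 1.74 (SE, limma adjusted p = 0.207). It was 2.23 with the shared slide's 4 arrays and 2.03 without pair 1 (limma adjusted p = 0.261 and 0.288).

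Foxa1, the partner pioneer factor, lay at 1.84, 1.79 and 0.83 in SMC lines 1 to 3 and at -0.80, 1.05 and -1.04 in non-SMC lines 1 to 3. Non-SMC line 2 reached the SMC range and the other non-SMC lines lay below it, and the difference was 1.75 ± 0.48 (SE, limma adjusted p = 0.135). With no pair in the fit and non-SMC line 2 left out, Foxa1 was 2.41 higher and passed (limma adjusted p = 0.028), and Foxa2, at 6.20, did not (limma adjusted p = 0.0746). In that fit 2 of 29 forkhead genes were higher, beside 1560 of all 19859 features. Foxa3, which acts in liver, was detected on no array.

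Epithelial markers did not follow the groups. Of 12 such markers, 11, 12 and 10 were detected in SMC lines 1 to 3 and 7, 12 and 12 in non-SMC lines 1 to 3, and 0 of 10 tested passed limma (0 also at an unadjusted p under 0.05). Their summed level was 333, 523 and 10.6 in SMC lines 1 to 3 and 3.25, 504 and 654 in non-SMC lines 1 to 3. Non-SMC line 1 was lowest in both this sum and Foxa2, whereas SMC line 3 combined a low sum with a high Foxa2 signal. The summed neuroendocrine level was 441, 373 and 337 in SMC lines 1 to 3 and 31, 177 and 21.4 in non-SMC lines 1 to 3. Of 16 neuroendocrine markers tested 0 passed limma and 13 were higher at an unadjusted p under 0.05, against 15% of features. The largest differences were those of the granin gene Chgb (6.16 ± 1.69) and the vesicle gene Syt1 (6.02 ± 1.93, both SE). The part of cell state in the Foxa1 and Foxa2 values was not tested.

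Foxa1 alone among forkhead genes with a RefSeq promoter (24 genes, 29 windows) held the full forkhead sequence TGTTTAC, which stands on either strand in 3.17% of all 32851 windows. Its 250 bases before the start, on the minus strand of GRCm38.p6 (chr12:57546112-57546361), are shown 5′ to 3′ with this match, the reverse complement of TGTTTAC, in capitals.
Foxa1: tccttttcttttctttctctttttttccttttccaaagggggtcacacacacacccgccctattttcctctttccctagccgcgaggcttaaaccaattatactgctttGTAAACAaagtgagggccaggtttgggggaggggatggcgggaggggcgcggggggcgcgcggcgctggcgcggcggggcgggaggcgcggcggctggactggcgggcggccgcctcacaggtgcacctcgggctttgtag
The shorter core TGTTTA, which the full sequence contains, was in 5 of 29 forkhead windows, those of Foxa1, Foxp1 and Foxp3, against 12.03% of all windows. A match describes these letters and not binding.

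Partners of FOXA in lung endoderm were mixed. Of 15 listed factors on the array 11 were tested, with a median of 1.01, and 1 passed, as lower, against 3.03% of features. That was Sox9, a factor of the distal lung bud and of cartilage, which lay at -8.55, -8.48 and -3.58 in SMC lines 1 to 3 and at 1.44, 0.24 and 1.84 in non-SMC lines 1 to 3. It was detected on 1 of 3 SMC arrays and differed by -8.04 ± 1.00 (SE, limma adjusted p = 0.0428). Of 16 airway and alveolar genes on the array 8 were tested, with a median of 0.36, and 0 passed limma. At an unadjusted p under 0.05 there was 1 gene in each direction, against 15% of features higher and 11.8% lower. Cyp2f2, a club cell gene, and Sftpc, a surfactant gene, had the largest differences, -4.69 ± 1.23 and 3.25 ± 1.66 (SE, limma adjusted p = 0.131 and 0.287).

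**Figure D3:**
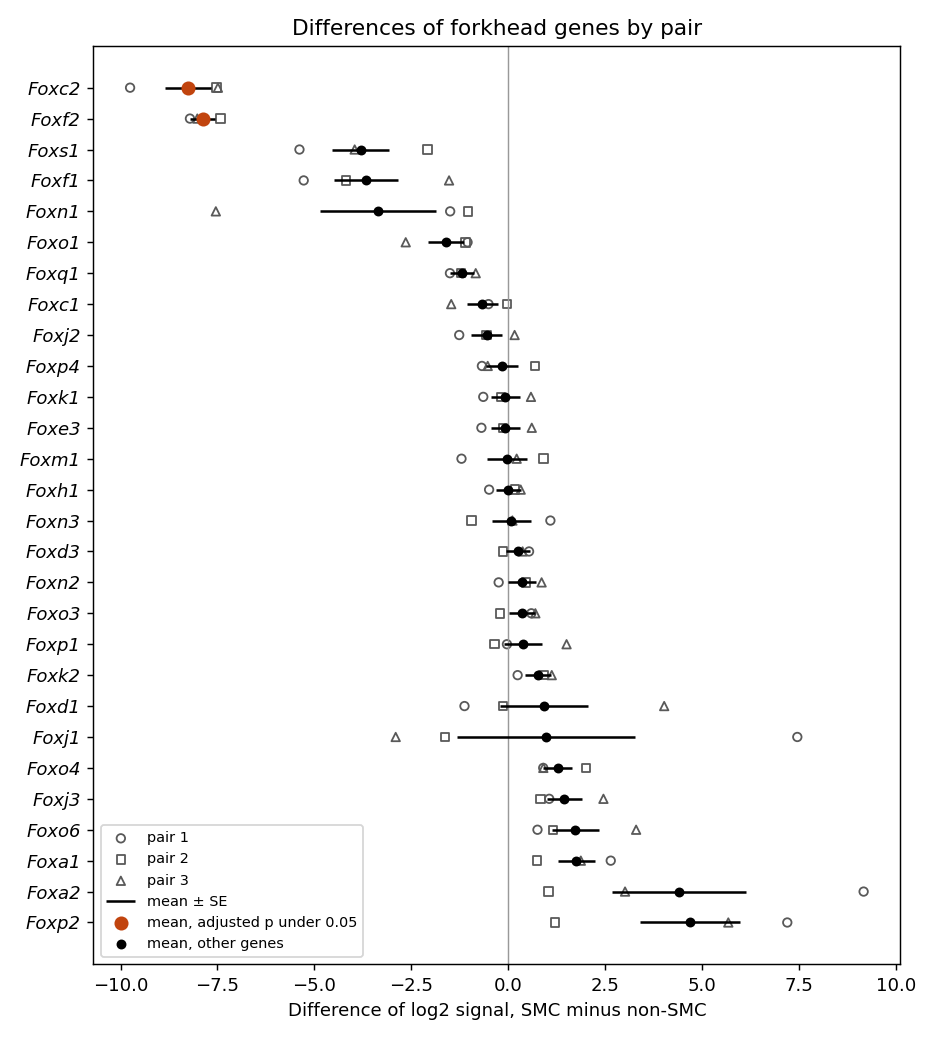
Differences of 28 tested forkhead genes (horizontal axis, log2 signal in SMC minus non-SMC lines), with open symbols for the 3 pairs, points for the means and bars for the SE, and genes past an adjusted p of 0.05 in orange. Foxc2 and Foxf2 lie at -8.26 and -7.88, and pair 2 lies nearer to 0 than the other pairs for Foxa1, Foxa2 and Foxp2.

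Among the FOXP genes, which encode repressors of lung epithelium and brain, Foxp2 lay at -1.396, -0.43 and -0.41 in SMC lines 1 to 3 and at -8.59, -1.64 and -6.08 in non-SMC lines 1 to 3. It was detected in all SMC lines and, among non-SMC lines, in line 2 only. The difference was 4.70 ± 1.29 (SE, limma adjusted p = 0.136), or 4.05 with dim signals raised to the detection limit, and a second Foxp2 probe gave 3.39. With normexp background correction it was 1.91 (limma adjusted p = 0.0799). Without pair 2 Foxp2 passed at 6.44 (limma adjusted p = 0.033), 1 of 29 forkhead genes higher against 2.64% of features. With the shared slide's 4 arrays the difference was 2.95 (limma adjusted p = 0.342).

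Foxp1 lay between 3.46 and 4.62 in SMC and between 3.12 and 3.82 in non-SMC lines, with a difference of 0.37 and a 95% interval of -0.97 to 1.72 (limma adjusted p = 0.656). Foxp4 lay between -2.75 and -1.63 in SMC and between -2.33 and -1.88 in non-SMC lines, with a 95% interval of -1.30 to 0.96 (limma adjusted p = 0.818). The ranges overlapped for both. Foxp3, the factor of regulatory T cells, was detected on no array. Of 14 leukocyte markers 4, 4 and 8 were detected in SMC lines 1 to 3 and 6, 5 and 9 in non-SMC lines 1 to 3. Their summed level was 0.134, 0.188 and 1.36 in SMC lines 1 to 3 and 1.78, 4.04 and 13.4 in non-SMC lines 1 to 3. Cd14, which encodes a co-receptor for bacterial lipopolysaccharide, was the 1 of 4 tested that passed, as lower, against 3.03% of features. Lyz2, a lysozyme gene of myeloid cells, made up 79.8% of the summed signal in SMC line 3. Cd14 made up 88.8%, 96.2% and 86.6% of the summed signals in non-SMC lines 1 to 3. Here too such shares do not compare the genes in level.

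Foxh1, the partner of SMAD proteins in nodal and activin signalling, lay between 0.85 and 1.23 in SMC and between 0.91 and 1.35 in non-SMC lines. Its difference of 0.00 had a 95% interval of -0.90 to 0.90.

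Foxn1, which builds the thymic epithelium and hair, lay at -7.36, -6.66 and -7.21 in SMC lines 1 to 3 and at -5.87, -5.62 and 0.33 in non-SMC lines 1 to 3. No SMC signal was well above background, and non-SMC line 3 lay far above the other non-SMC lines. Non-SMC lines 1 and 2 lay near the detection limits of their arrays, -6.71 and -6.32. The gap between the means was at least 5.99-fold, and the fitted difference of -3.36 ± 1.49 did not pass (SE, limma adjusted p = 0.242). Without pair 3 it was -1.27 (limma adjusted p = 0.388), and with normexp background correction -1.35 (limma adjusted p = 0.312). Foxe3, a lens factor, lay between -5.67 and -4.65 in SMC and between -5.53 and -4.54 in non-SMC lines, which overlap.

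Insulin and growth factor signals keep the FOXO1, FOXO3 and FOXO4 proteins out of the nucleus through AKT. The 4 FOXO genes had differences of both signs. Foxo1 lay at 1.18, 0.98 and 0.79 in SMC lines 1 to 3 and at 2.22, 2.08 and 3.43 in non-SMC lines 1 to 3. SMC signals were lower in each pair, and the mean difference was -1.60 ± 0.46 (SE, limma adjusted p = 0.143), and the other probe gave -1.44. Foxo4 lay at -3.32, -2.86 and -3.12 in SMC lines 1 to 3 and at -4.22, -4.86 and -4.02 in non-SMC lines 1 to 3. Here every SMC signal was above every non-SMC signal, and the difference was 1.27 ± 0.38 (SE, limma adjusted p = 0.148). Foxo6, the member best known from brain, lay at 2.80, 2.98 and 4.20 in SMC lines 1 to 3 and at 2.04, 1.82 and 0.90 in non-SMC lines 1 to 3. It did not overlap between groups, with a difference of 1.74 ± 0.62 (SE, limma adjusted p = 0.184). Foxo3 lay near the detection limit on all arrays, between -5.91 and -5.07 in SMC and between -5.77 and -5.70 in non-SMC lines.

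Of 23 tested genes upstream of FOXO 0 were called by limma, and the median was -0.13. At an unadjusted p under 0.05, 2 were lower, against 11.8% of features. Sgk1, a kinase that phosphorylates FOXO proteins, and Irs1, an insulin receptor substrate, had the largest differences, -4.09 ± 0.93 and -1.42 ± 0.31 (SE, limma adjusted p = 0.114 and 0.111). Of 27 tested FOXO targets 2 were lower and 0 higher, against 3.03% and 0.156% of features, and the median was -0.05. Ccnd2, which encodes cyclin D2 and is repressed by FOXO proteins, lay at -7.99, -8.07 and -5.41 in SMC lines 1 to 3 and at 2.51, 4.98 and 3.94 in non-SMC lines 1 to 3. It was detected on 1 of 3 SMC arrays and differed by -10.97 ± 0.81 (SE, limma adjusted p = 0.0158). Bcl6, a repressor that FOXO proteins activate, lay at -0.91, -0.79 and -0.32 in SMC lines 1 to 3 and at 1.60, 1.70 and 2.04 in non-SMC lines 1 to 3. It was detected on all arrays, did not overlap between groups and differed by -2.45 ± 0.28 (SE, limma adjusted p = 0.0356).

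Foxm1, which drives genes of the G2 and M phases, lay at 1.78, 2.52 and 1.71 in SMC lines 1 to 3 and at 2.99, 1.60 and 1.49 in non-SMC lines 1 to 3. The ranges overlapped, and the difference of -0.02 had a 95% interval of -1.45 to 1.402 (limma adjusted p = 0.981). Of 21 mitotic targets tested 0 passed limma and 1 was higher at an unadjusted p under 0.05, against 15% of features. A positive difference was found for 17 of 21, with a median of 0.34, against 58.4% of features and a median of 0.18. Cdc25b, a phosphatase gene, and Cdc20, an anaphase activator, had the largest differences, 0.96 ± 0.30 and 0.85 ± 0.53 (SE, limma adjusted p = 0.157 and 0.366).

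Foxj1, the switch of motile ciliogenesis, lay at -0.49, -3.29 and -3.63 in SMC lines 1 to 3 and at -7.95, -1.66 and -0.73 in non-SMC lines 1 to 3. The signal of non-SMC line 1 was not well above background. The pair differences were 7.46, -1.62 and -2.90 in pairs 1 to 3, so pair 1 had the opposite sign to the others (limma adjusted p = 0.812). Of 23 ciliary genes tested, 2 were higher and 0 lower, against 0.156% and 3.03% of features. At an unadjusted p under 0.05, 11 were higher, against 15% of features, and the median was 1.37. Both that passed encode axonemal dynein heavy chains and were well above background on no non-SMC array. They entered the test through the SMC arrays only, and their p-values rest partly on background signal. Dnah2 lay at -4.71, -4.63 and -3.81 in SMC lines 1 to 3 and at -8.81, -8.44 and -7.83 in non-SMC lines 1 to 3, and was at least 3.93-fold higher (limma adjusted p = 0.0145). Dnah11 lay at -4.54, -4.19 and -6.31 in SMC lines 1 to 3 and at -7.04, -6.34 and -8.36 in non-SMC lines 1 to 3, and was at least 2.54-fold higher (limma adjusted p = 0.0472). The Dnah11 signal of SMC line 3 was at the detection limit of its array, the dimmest signal there called well above background. With normexp 0 ciliary genes passed, while 54 of 19859 features were higher. The same count of 0 came without pair 1 and without pair 3, fits in which 0 of all features were higher.

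The relatives Foxj2 and Foxj3 and the FOXK genes are expressed in many tissues. Foxj3 lay at 2.71, 2.97 and 4.31 in SMC lines 1 to 3 and at 1.65, 2.14 and 1.86 in non-SMC lines 1 to 3. It did not overlap between groups, and differed by 1.45 ± 0.45 (SE, limma adjusted p = 0.156), while its other probe gave 0.92. Foxj3 and Foxo6 lie on chromosome 4 with 4 protein-coding genes between them, and pair 3 had the largest difference for both, 2.46 for Foxj3 and 3.30 for Foxo6. Foxj2 lay between -0.40 and 0.62 in SMC and between 0.45 and 0.86 in non-SMC lines (limma adjusted p = 0.421).

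Foxk2, a factor tied to autophagy and metabolism, lay at 2.42, 2.40 and 2.63 in SMC lines 1 to 3 and at 2.18, 1.49 and 1.502 in non-SMC lines 1 to 3. That probe did not overlap between groups, with a difference of 0.76 ± 0.33 (SE, limma adjusted p = 0.237), while the other Foxk2 probes gave 0.32 and -0.30. The probes of Foxk1 gave -0.08, 0.27 and 0.11. Foxk1 and Foxk2 were the 2 of 9 genes with several probes whose probes disagreed in sign. Foxn2 lay between -0.33 and 0.18 in SMC and between -0.90 and -0.08 in non-SMC lines, with a 95% interval of -0.62 to 1.35 for the difference. Foxn3, linked to cell cycle checkpoints, lay between 0.64 and 2.20 in SMC and between 0.72 and 2.09 in non-SMC lines, with an interval of -1.28 to 1.45.

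The remaining members gave little or no signal. Foxb1 and Foxb2, both factors of the developing nervous system, Foxi1, a factor of the inner ear and of ionocytes, and Foxi2 were detected on no array. Foxd4 lay at -4.15, -8.16 and -8.22 in SMC lines 1 to 3 and at -8.52, -8.33 and -7.98 in non-SMC lines 1 to 3. SMC line 1 alone was above the detection limit. Foxe1, a thyroid factor, lay at -8.11, -6.46 and -5.09 in SMC lines 1 to 3 and at -7.55, -7.41 and -6.95 in non-SMC lines 1 to 3, and was detected in SMC line 3 only.

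Of 28 regulators on the array that act beside FOXF1 in lung mesenchyme 14 were tested, and the median was -2.79. Of these, 4 passed as lower and 0 as higher, against 3.03% and 0.156% of features. Twist2 and Twist1, helix-loop-helix factors of mesenchyme, were well above background on no SMC array and were at least 175-fold and 56.4-fold lower in SMC lines (limma adjusted p = 0.012 and 0.0172). Prrx1, a limb and craniofacial mesenchyme factor, lay at -5.04, -5.23 and -4.10 in SMC lines 1 to 3 and at 5.27, 0.88 and 2.37 in non-SMC lines 1 to 3. It differed by -7.63 ± 0.98 (SE, limma adjusted p = 0.0463), and the fourth was the growth factor gene Bmp4. The fibroblast marker sums above stand beside this list too, and their part in it was not tested. Without pair 3, where 0 of all features passed, 0 of these regulators did.

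**Figure D4:**
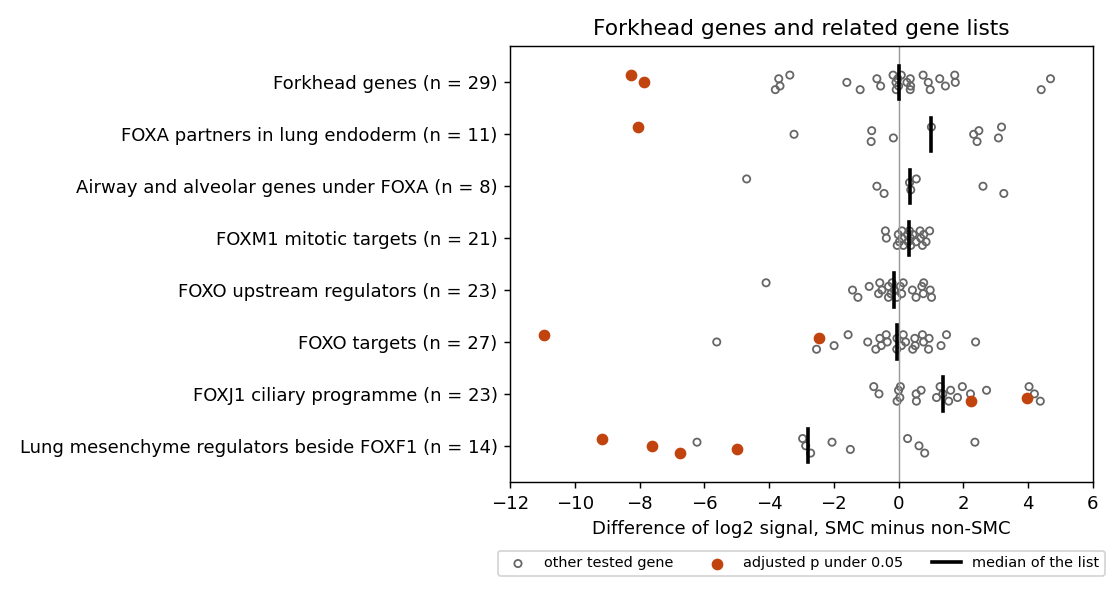
Differences (horizontal axis, log2 signal in SMC minus non-SMC lines) of the tested forkhead genes and of 7 related gene lists, where each point is a gene, orange past an adjusted p of 0.05, and black bars are list medians. The mesenchymal list has its median at -2.79 and the ciliary list at 1.37, while the forkhead median is 0.00.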

How the data were processed

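RNA of 6 primary mouse lung tumour lines was hybridised to Agilent arrays with 1 dye, Cy3. Per the file headers, images were read by Feature Extraction 10.7.3.1 (the submitters' processing notes name 10.7) on array design 014868, with build mm9. The intensity used is the deposited processed signal, corrected for background by that software per the file headers and not normalized between arrays. The authors' deposited series table holds log2 values with a median of 5.07 on every array; how they were made is not given in the sources used here, and each column correlated at 0.996 or more with its own array.

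Control spots (1639) and outlier-marked spots were left out, spots of a probe were averaged, and log2 signals were set against the array's 75th percentile (485 to 696 intensity units). The files used carry no gene name column, so 27479 of 41174 probes got symbols by accession from RefSeq's GRCm38.p6 table and 13695 stayed unnamed; the member rule was applied to these symbols. Features entered the test by the detection rule given in the report, and the brightest such probe stood for its gene. The fit was limma 3.58.1 in R 4.3.3 with pair and group, two-sided, with 2 residual and 2.07 prior degrees of freedom. It was also run on simulated data with independent normal noise and no background floor. That run therefore checks nothing about genes that are undetected in a group. Pairs come from the labels. Deviations of partners from their group means correlated at -0.01, 0.14 and -0.0024. Those of SMC and non-SMC lines that are not partners correlated at -0.15 to 0.13. Normexp used median spot and background signals with an offset of 50. P-values measure the spread between 3 pairs of lines, whose number limits the precision. An exact test over 3 pairs cannot go below 0.25. Where no signal of a group was well above background, as for Foxf2 and Foxc2 in SMC lines, the SE and p-value rest partly on background signal. Such genes entered the test through the other group only. Alternatives covered scaling, background, detection, probe choice, pair, slide and leaving out lines.

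Counts over the family include 1 forkhead gene whose own values are not reported here. The other forkhead genes are named, and of each related list the strongest called members (at most 3) or, with none called, the 2 with the greatest differences, plus Bmp4, which was added after its value was seen. The members and lists were chosen with earlier results of these data known.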

Additional observations from a re-analysis of the deposited data

How the results depend on the processing

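The sign of the difference held in every setting run for 19 of the 29 tested forkhead genes; the other 10 had absolute differences of at most 0.98 and passed in no setting. Features higher and lower in SMC numbered 31 and 601. They were 240 and 974 with median scaling, 7 and 383 with no filter, 4 and 135 with detection required on all 6 arrays and, with no replicate block, 277 and 975. The count of higher features also moved with normexp (54), every probe as its own feature (54), a slide block beside the pair (9) and the shared slide alone (20). Leaving out a pair, or 1 array with no replicate block, gave 0 to 1560 higher and 0 to 1146 lower features, and 0 to 2 forkhead genes higher and 0 to 3 lower. The lowest, 0 and 0 by limma, came without pair 3 (924 and 1742 at an unadjusted p under 0.05), and the highest without non-SMC line 2. Forkhead genes lower in SMC numbered 1 of 29 with normexp (Foxf2), beside 584 of 19859 features. They numbered 3 with no replicate block and 3 on the shared slide, each with Foxf1 added, beside 975 and 612 of 19859 features. With detection required on all 6 arrays they numbered 0 of 23, beside 135 of 16358 features, and neither Foxc2 nor Foxf2 was tested. The median difference of all features was 0.18, and 0.10 with median scaling and 0.078 with normexp. Causes were not tested.

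Signs turned for Foxm1 with quantile normalization (0.029), with the deposited values (0.035) and on the shared slide (0.60), for Foxh1 with median scaling (-0.081), for Foxj1 with normexp (-0.0073) and on the shared slide (-0.69), for Foxk1 with the mean of its probes (0.10) and on the shared slide (0.038), and on the shared slide for Foxc1 (0.50), Foxn3 (-0.61) and Foxp4 (0.18). Over the settings that leave out lines, differences ranged from -0.49 to 0.57 for Foxm1, -0.16 to 0.25 for Foxh1, -2.26 to 2.92 for Foxj1, -0.41 to 0.20 for Foxk1, -1.22 to 0.027 for Foxc1, -0.42 to 0.60 for Foxn3, -0.60 to 0.084 for Foxp4, -0.41 to 0.24 for Foxe3, -0.63 to 1.94 for Foxd1 and -0.19 to 0.74 for Foxp1. Signals below the detection limit, on which the Foxf2, Foxc2, Foxf1 and Foxn1 values in SMC lines rest, give bounds only.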

Other observations

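Pair 2 had the smallest absolute difference of the 3 pairs for 15 of 29 tested forkhead genes, and pairs 1 and 3 for 7 each. Over the 19847 features with a value on every array, pair 2 had the smallest for 50.76%. The median absolute difference of the forkhead genes was 1.06, 0.92 and 1.51 in pairs 1 to 3, against 0.88, 0.54 and 0.85 over all features. Pair 2 is also the male pair and the one measured within a slide. Its non-SMC line carried 17 of 17 neuroendocrine markers, against 11 and 15 in non-SMC lines 1 and 3. These traits cannot be told apart here. The differences in pair 2 were -7.42 for Foxf2, -7.53 for Foxc2 and 2.01 for Foxo4, and 1.04 for Foxa2 and 1.21 for Foxp2. These genes were chosen after their values were seen.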
